A study of Drosophila melanogaster with 10 samples.

Results

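SAGA is a transcriptional coactivator complex made of modules. One module, built on the acetyltransferase Gcn5, acetylates histone H3, another removes ubiquitin from histone H2B, and a core of Spt, Ada and TAF-like proteins holds them together and contacts the TATA-binding protein. The large subunit Nipped-A, the fly Tra1, is the surface that activators bind, and SAGA shares it with the Tip60 acetyltransferase complex. The members examined were Spt3 and wda of the core, Sgf11 of the deubiquitinase module, Gcn5, Ada2b and Ada3 of the acetyltransferase module, and Nipped-A. They were chosen by name, as the probe sets annotated to these 7 genes by current symbol or synonym, with 1 probe set per gene, the one with the highest mean over the 10 arrays. A probe set was assigned to 5 of the 7 genes, out of 11981 genes with a probe set that names 1 gene, and each of the 5 genes had exactly 1. Gcn5 and Nipped-A were not analysed here. The 7 genes were chosen with earlier results of these arrays known.

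The RNA came from Drosophila SL2 cells, an established line derived from embryos. For RNA interference cells received 10 µg of dsRNA and were kept for 7 days at 26 °C, and each RNA sample was hybridised to 1 Affymetrix array. The groups were the dsRNA construct M1 against MBD-R2 (3 arrays), the construct M2 against the same transcript (3 arrays), cells without dsRNA (1 array) and dsRNA against GST, the control (3 arrays). MBD-R2 is a subunit of the NSL chromatin complex. Its transcript was not analysed here, so knockdown names the treatment with M1 or M2 and not a measured depletion. The M1, M2 and GST groups share the exposure to dsRNA, and the study's design text calls their replicates biological.

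Levels are the deposited GCRMA values on a log2 scale, and differences between groups are log2 fold changes from limma over 7298 probe sets with a mean level of at least 4, all 5 measured SAGA genes among them. The table's lowest value was 2.22, and between 50.6% and 53.2% of probe sets in each array were within 0.1 of it. SL2 cells are blood cell-like, and all 8 of 8 blood cell markers passed the filter, with levels between 8.97 and 15.00 in every array. Of 9 measured markers of muscle, neurons, fat body and germ line 7 had a mean below 4, the highest single value among them being 4.54, while the neuronal genes elav (1.06 ± 0.57 on the log2 fold scale, not passed) and brp (1.18 ± 0.14, passed as higher) were above it. Summed log2 levels of the 8 blood cell markers ran from 101.2 to 106.1 in knockdown arrays and from 102.1 to 102.9 in GST arrays. Within these sums 1 of the 8 passed, NimC1, a phagocytic receptor gene, which was higher by 2.20 ± 0.27 in knockdown arrays (limma adjusted p = 0.000633), with no overlap with GST. For the 9 other markers the sums were 30.3 to 34.4 in knockdown arrays and 27.8 to 29.0 in GST arrays. The part of these markers in the results on SAGA genes was not tested.

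Spt3, wda and Sgf11 were lower after MBD-R2 knockdown, Ada2b had higher values that did not pass the test, and Ada3 did not separate the groups. Thus 3 of 5 measured SAGA genes passed as lower and 0 as higher when M1 and M2 together were set against GST (limma, adjusted p under 0.05), where 17.4% of all probe sets tested passed as lower, 7.85% as higher and 25.3% in either direction. With the replicate number as a block the counts were 3 lower and 1 higher (Ada2b), where 25.7% and 18.0% of all probe sets passed as lower and higher. The genes were chosen with earlier results of these arrays known, so these shares are a description. Spt3, among the 3 lower genes, passed the filter on the mean level through its control values. Since the arrays measure RNA from whole cultures, less RNA per cell cannot be told apart from fewer cells that express a gene. The median log2 fold change was -0.52 over the 5 genes and -0.03 over all probe sets tested.

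Spt3 lies on chromosome arm 3R and encodes a histone-fold protein through which SAGA contacts the TATA-binding protein. It had log2 levels of 3.37, 3.93 and 3.65 in the M1 arrays, 3.95, 4.03 and 3.65 in the M2 arrays, 5.41 without dsRNA, and 5.40, 5.39 and 5.48 in the GST arrays. All 6 knockdown arrays lay below all 3 GST arrays, with 1.36 log2 units between the nearest arrays. The log2 fold change was -1.66 ± 0.16 (SE, 6 arrays against 3, limma adjusted p = 0.000213), a 3.16-fold fall. A lower fold change was found for 428 of the 7298 probe sets (5.86%). The knockdown arrays averaged 3.76 ± 0.25 (SD, n = 6), under the filter of 4 that Spt3 passed through its control values, and the lowest was 1.15 above the lowest value of the table. Without the filter the adjusted p was 0.00113 in limma.

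wda, also on 3R, encodes a WD-repeat core subunit related to Taf5 of TFIID. Its levels were 5.38, 5.83 and 5.78 with M1, 5.60, 5.77 and 5.78 with M2, 7.37 without dsRNA, and 7.03, 6.67 and 7.19 with GST. Again every knockdown array was below every GST array, by at least 0.83. The log2 fold change of -1.27 ± 0.17 (SE, limma adjusted p = 0.00101) corresponds to a 2.42-fold fall. For Spt3 and wda the test was passed after leaving out any 1 array, with fold changes of -1.73 to -1.59 for Spt3 and -1.42 to -1.16 for wda.

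Sgf11, on 3L, encodes a small subunit of the deubiquitinase module. It measured 8.08, 8.10 and 8.34 with M1, 7.88, 8.02 and 8.31 with M2, 8.72 without dsRNA, and 8.44, 8.74 and 8.72 with GST. The groups were separated by only 0.10, between M1 replicate 3 and GST replicate 1. The fall was the smallest of the genes that passed, at -0.52 ± 0.15 (SE, limma adjusted p = 0.038), or 1.43-fold. Its call was lost when a single array was left out in 6 of 10 cases. The case without the array of no dsRNA could not change the call, as that array adds nothing to this comparison. The limma adjusted p was 0.0785 without the first M1 array and 0.0827 without the second, 0.0843 and 0.0823 without those of M2, and 0.125 and 0.104 without GST replicate 2 or 3. It was also lost with median centring (0.0766), quantile normalisation (0.0997) and without the filter (0.0621). With the replicate number as a block the adjusted p was 0.0074.

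**Figure D1:**
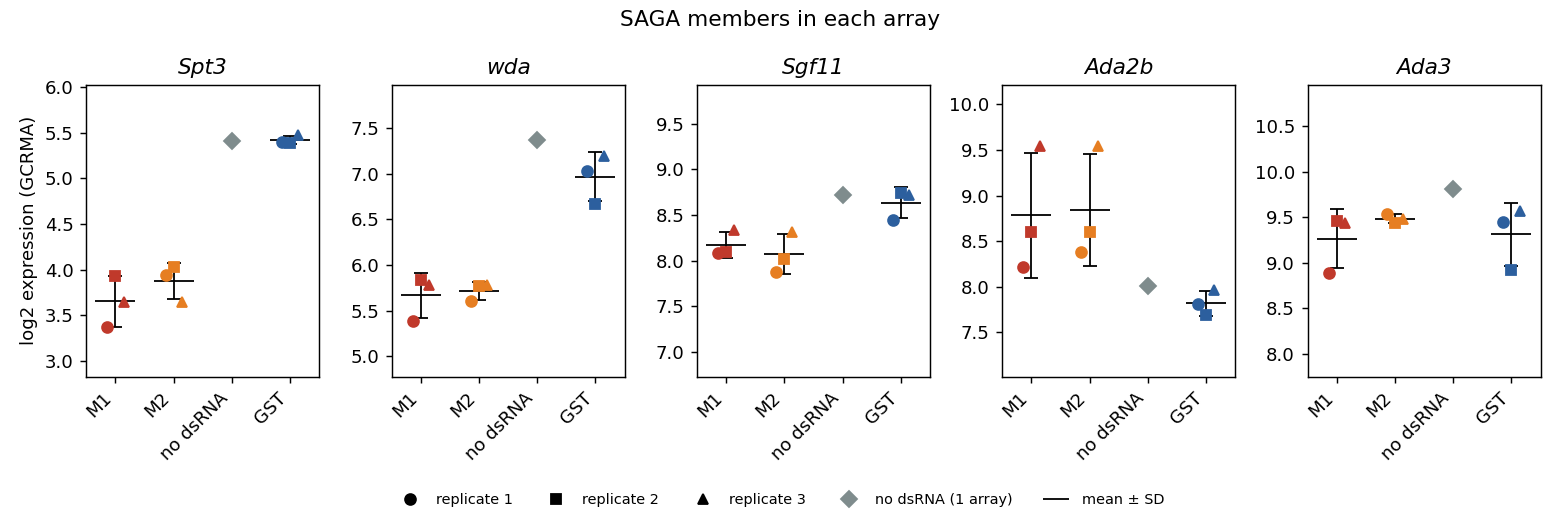
log2 expression (y axis, GCRMA values) of 5 SAGA genes in each array, by group along the x axis. Symbols mark replicate numbers, and bars show the mean and SD of 3 arrays. Each panel spans the same number of log2 units, and knockdown arrays lie below the GST arrays for Spt3, wda and Sgf11, above them for Ada2b and among them for Ada3.

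Ada2b and Ada3 encode adaptor proteins of the acetyltransferase module, and Ada2b is the adaptor that sets SAGA apart from ATAC, another Gcn5 complex. Ada2b (3R) had 8.21, 8.60 and 9.54 with M1, 8.38, 8.60 and 9.54 with M2, 8.01 without dsRNA, and 7.81, 7.69 and 7.96 with GST. All knockdown arrays exceeded all GST arrays, by at least 0.25, but they spread over more than 1 log2 unit. The log2 fold change was 0.99 ± 0.34 (SE, limma adjusted p = 0.0696) and did not pass. With the replicate number as a block it was 0.99 ± 0.20 and passed (limma adjusted p = 0.0064). Ada2b was then the only one of 5 measured SAGA genes to pass as higher, with the same 3 genes lower, while 43.7% of all probe sets passed in either direction. A block for replicate 3 against replicates 1 and 2 called the same 4 genes, with 48.5% of all probe sets. Ada2b also passed after quantile normalisation (limma adjusted p = 0.035) and without M1 replicate 1 (0.0478). Values above or below all GST arrays in all 6 knockdown arrays were found for 10.7% and 21.7% of all probe sets tested, and for 1 and 3 of the 5 SAGA genes. Together 32.3% of all probe sets had no overlap between knockdown and GST arrays.

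Ada3 lies on the X and is shared by SAGA and ATAC. Its levels were 8.89, 9.46 and 9.44 with M1, 9.53, 9.44 and 9.48 with M2, 9.81 without dsRNA, and 9.44, 8.92 and 9.57 with GST. The groups overlapped, and the array without dsRNA had the highest value of all. The log2 fold change was 0.06 ± 0.20 with a 95% interval of -0.39 to 0.51 (limma adjusted p = 0.872). A fall of the size seen for Spt3 or wda lies outside this interval.

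By their values the arrays divide into replicates 1 and 2 on one side and replicate 3 on the other, a division that no label gives. The size of the effect was compared between these sides. Compared within replicate 3, Ada2b was 1.58 above GST in the knockdown arrays, against 0.70 within replicates 1 and 2. The difference was 0.88 ± 0.22 (SE), with a limma adjusted p of 0.0461 where 9.91% of all probe sets passed. On the replicate 3 side this rests on 1 GST array (7.96), which is assumed to vary like the other arrays, so the GST spread within replicate 3 is not in it. The effect also differed by this division for 3 of 8 blood cell markers, with Pxn at -1.46 in replicate 3 and -0.15 in replicates 1 and 2, Hml at -0.76 and 0.23, and vkg at -0.92 and 0.01. Their part in the Ada2b result was not tested. Spt3 fell by 1.83 within replicate 3 and by 1.57 within replicates 1 and 2, wda by 1.41 and 1.20, and Sgf11 by 0.40 and 0.57, and none of these differences passed (limma adjusted p = 0.664, 0.68 and 0.633). Ada3 had -0.11 and 0.15 (0.713). In replicates 1 and 2 alone, where 38.9% of all probe sets passed, Ada2b passed as higher (limma adjusted p = 0.0156) and Spt3, wda and Sgf11 as lower (0.00161, 0.00489 and 0.0155).

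**Figure D2:**
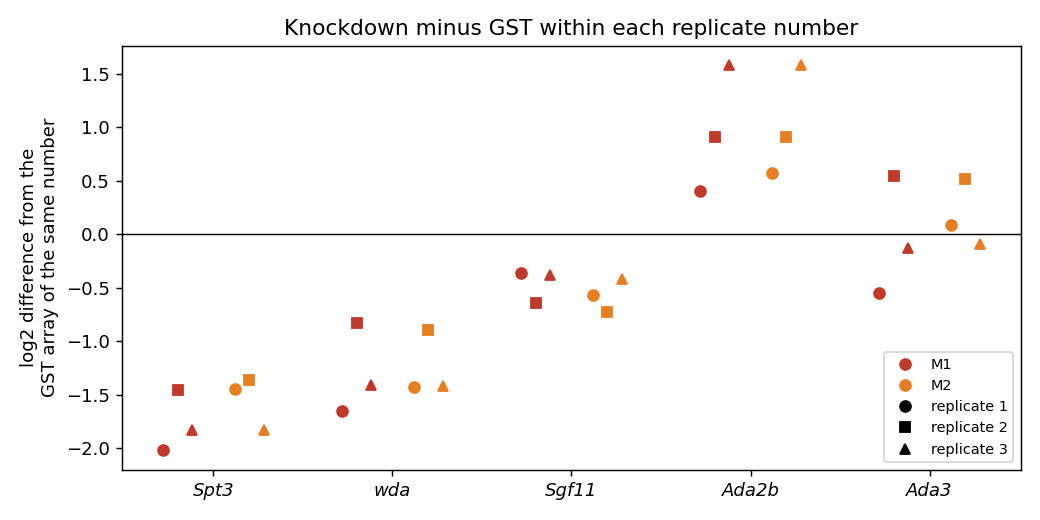
Log2 difference of each M1 and M2 array from the GST array with the same replicate number (y axis) for 5 SAGA genes (x axis). All 6 differences are below 0 for Spt3, wda and Sgf11 and above 0 for Ada2b, where both replicate 3 arrays stand at 1.58, and Ada3 has values on both sides of 0.

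The constructs M1 and M2 differ in sequence and target the same transcript. Each comparison with GST uses the same 3 GST arrays. With M1 alone Spt3 (-1.77 ± 0.18, limma adjusted p = 0.000435) and wda (-1.30 ± 0.19) passed as lower, with M2 alone the same 2 genes did (-1.55 ± 0.18 and -1.25 ± 0.19), and Sgf11 and Ada2b passed with neither. Of all probe sets, 20.4% passed with M1 (14.7% lower, 5.67% higher) and 18.8% with M2 (13.5% lower, 5.32% higher). Sgf11 had -0.46 ± 0.17 with M1 and -0.57 ± 0.17 with M2 (limma adjusted p = 0.103 and 0.0556), and Ada2b had 0.96 ± 0.40 and 1.02 ± 0.40. With the replicate number as a block both passed with each construct, so that 4 of the 5 genes were called with M1, beside 37.4% of all probe sets, and 4 with M2, beside 36.3%. The block for replicate 3 also called 4 genes with each construct, beside 42.2% and 41.3% of all probe sets. Set directly against M1, M2 gave no call in limma, with 0 of the 5 genes and 0% of all probe sets, and 0 of the 5 had an unadjusted p under 0.05 (19 of 7298 probe sets did). The 95% intervals of the M2 minus M1 difference were -0.20 to 0.64 for Spt3, -0.39 to 0.50 for wda, -0.50 to 0.29 for Sgf11, -0.85 to 0.97 for Ada2b and -0.30 to 0.74 for Ada3. These intervals include 0 and leave room for differences between the constructs of the sizes given. M1 and M2 arrays of the same replicate number deviated together from their group means (r of 0.79 to 0.93). The fit without a block keeps this in its spread, so it can miss differences between the constructs. With the replicate number as a block, M2 against M1 also gave 0% of all probe sets. In replicate 3 the deposited Spt3 values of M1 and M2 were identical, as were those of 17 of 7298 probe sets, although these arrays differed with an SD of 0.251 over all probe sets tested.

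Cells without dsRNA gave the background of dsRNA exposure. Spt3 differed from the GST mean by -0.01, Sgf11 by 0.09, Ada2b by 0.19, wda by 0.40 and Ada3 by 0.50. That mean covers both sides of the division of replicates, and the title of the array without dsRNA gives no replicate number. Its levels of wda (7.37) and Ada3 (9.81) stood beside 7.19 and 9.57 in GST replicate 3, the highest GST array for both. Limma called 0 of the 5 genes and 0% of all probe sets, with 0 of the 5 and 68 of 7298 probe sets at an unadjusted p under 0.05. With 1 array this does not show that dsRNA had no effect. For Spt3, wda and Sgf11 the array without dsRNA lay above all 6 knockdown arrays, and for Ada2b below them.

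The remaining SAGA subunits were examined as a list of 14 genes, of which 12 had a probe set naming 1 gene and all 12 passed the filter. Of these, 6 fell and 0 rose in limma, their median log2 fold change was -0.80, and all 12 fold changes were below 0. Together with the 5 genes above, 9 of 17 measured SAGA subunits passed as lower (52.9%, against 17.4% of all probe sets) and 0 as higher. Spt3, among the 9, passed the filter through its control values. With the replicate block 11 of 17 were lower and 1, Ada2b, higher, against 25.7% and 18.0% of all probe sets. The lists were chosen with earlier results of these arrays known, so these shares are a description. After spike-in centring of the arrays 0 of the 12 passed, with a median of -0.59, while the other scalings left 3 to 6 lower and 0 higher. Over all 7298 probe sets, 110 passed as lower and 115 as higher after spike-in centring. With the other scalings 990 to 1164 passed as lower and 120 to 820 as higher.

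Spt3, which passed the filter through its control values, is counted in the core. There 6 of 8 tested subunits were lower, beside 17.4% of all probe sets. Besides Spt3 and wda, these were Spt7, the histone-fold scaffold subunit (-1.51 ± 0.18, limma adjusted p = 0.00055), Saf6, a Taf6-like histone-fold protein of SAGA (-1.29 ± 0.19), and the histone-fold TAFs Taf10b (-0.88 ± 0.15) and Taf9 (-0.84 ± 0.21), the last shared with TFIID. Spt7 measured 4.25, 4.45 and 4.43 with M1, 4.56, 5.003 and 4.48 with M2, 6.13 without dsRNA, and 6.07, 6.30 and 5.75 with GST. The knockdown arrays of Spt7 were all below the GST arrays. The call of Taf9 was lost without GST replicate 3 (limma adjusted p = 0.0678). Of the core subunits that did not pass, Taf12, also a TFIID subunit, had -0.20 ± 0.12, and Spt20 had -0.21 ± 0.74. Spt20 measured 6.08, 6.27 and 3.67 with M1, 5.93, 5.87 and 3.75 with M2, 4.26 without dsRNA, and 5.48, 6.31 and 4.63 with GST, so that replicate 3 was lowest in each group.

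In the deubiquitinase module e(y)2, a small subunit that also belongs to an mRNA export complex, fell by 1.19 ± 0.21 (limma adjusted p = 0.00407). It had 7.44, 7.58 and 7.98 with M1, 7.49, 7.89 and 7.70 with M2, 9.31 without dsRNA, and 8.58, 8.71 and 9.31 with GST, again without overlap between knockdown and GST. not, the ubiquitin protease itself, had -0.76 ± 0.31 and did not pass (limma adjusted p = 0.121), but passed with the replicate number as a block (-0.76 ± 0.12, 0.00287). Atxn7, which ties this module to the core, had -0.22 ± 0.23. With Sgf11, 2 of 4 tested deubiquitinase subunits were therefore lower, beside 17.4% of all probe sets, and 3 of 4 with the block, beside 25.7%. In the acetyltransferase module 1 of 3 tested subunits fell, beside 17.4% of all probe sets. It was Sgf29 (-0.86 ± 0.14, limma adjusted p = 0.00258), whose domain binds methylated histone H3 and which ATAC also contains. Sf3b5 and Sf3b3, splicing factors found in SAGA as well, had -0.46 ± 0.24 and -0.03 ± 0.22 and did not pass, while with the block Sf3b5 did (limma adjusted p = 0.0199). No test compared the modules with each other.

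**Figure D3:**
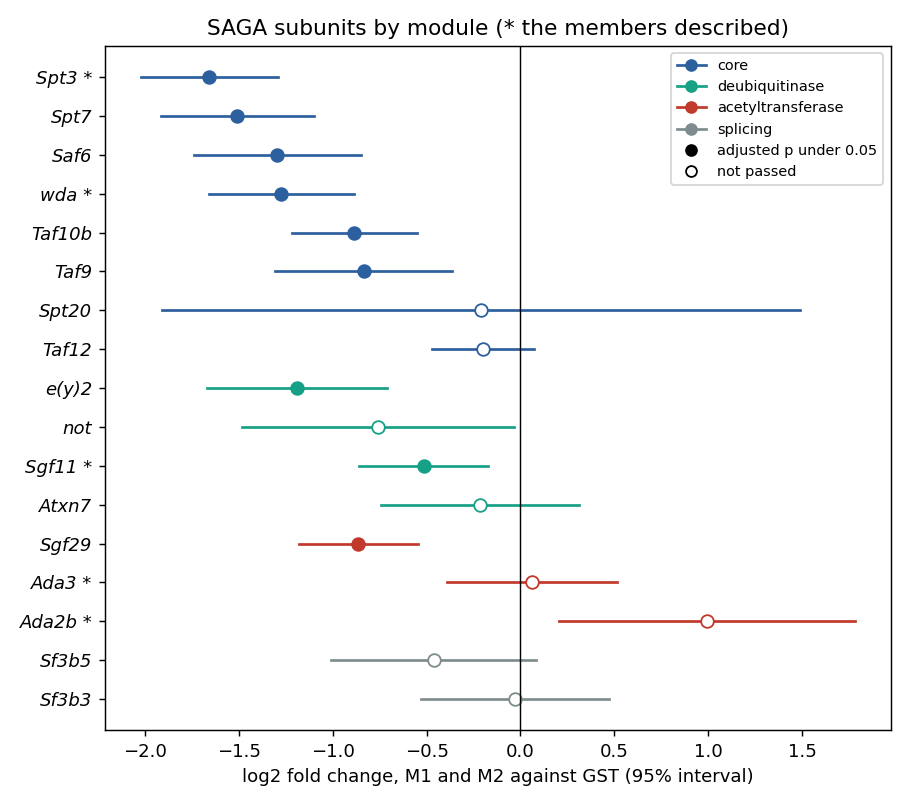
Log2 fold change of M1 and M2 against GST (x axis, points with 95% intervals) for 17 SAGA subunits (y axis), coloured by module, with filled points where the limma adjusted p is under 0.05 and asterisks at Spt3, wda, Sgf11, Ada2b and Ada3. Of 8 core subunits 6 are filled and below 0, while Ada2b is the subunit with the highest fold change.

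Other complexes that share subunits with SAGA were set beside it. Of 11 listed Gcn5 partners outside SAGA, from the ATAC and CHAT complexes, 9 had a probe set and 6 passed the filter, and of these 1 fell and 0 rose, with a median of -0.43. This share of 16.7% is near the 17.4% of all probe sets that passed as lower. The one that fell was Atac3, an ATAC subunit (-1.02 ± 0.15, limma adjusted p = 0.00189). With the replicate number as a block D12 (-0.53 ± 0.12) and NC2beta (-0.47 ± 0.12) fell as well, 3 of 6 in all beside 25.7% of all probe sets. Of 14 listed Tip60 complex genes 12 were tested, 7 fell (58.3%, against 17.4% of all probe sets) and 0 rose, with a median of -0.50. The count was 5 lower with median centring, 4 lower and 1 higher after quantile normalisation, 1 lower after spike-in centring and 2 lower when GST replicate 2 was also left out. Over all 7298 probe sets these 4 fits called 1164, 1107, 110 and 990 as lower, and quantile normalisation called 820 as higher. Gas41, a YEATS-domain subunit, had the largest change of the list and fell by 3.03 ± 0.16, with 4.20, 4.33 and 4.28 in the M1 arrays, 4.57, 4.41 and 4.005 in the M2 arrays, 7.29 without dsRNA, and 7.50, 7.19 and 7.28 in the GST arrays (limma adjusted p = 1.24e-05). Brd8, a bromodomain subunit, fell by 1.31 ± 0.38, YL-1, a histone variant chaperone, by 0.80 ± 0.15, and the RuvB-like helicase gene rept by 0.64 ± 0.12. MrgBP, DMAP1 and Eaf6 fell by 0.56 ± 0.15, 0.51 ± 0.15 and 0.50 ± 0.13. The calls of Brd8, MrgBP, DMAP1 and Eaf6 held in 4, 4, 3 and 4 of 10 fits that left out 1 array, and those of Gas41, YL-1 and rept in all 10. Of these 10, the fit without the array of no dsRNA could not change a call. With the block, 8 of 12 were lower and 1 higher, beside 25.7% and 18.0% of all probe sets. In that fit MRG15 passed as lower and dom, the remodelling ATPase of the complex, as higher (0.98 ± 0.17, limma adjusted p = 0.00335). Of 3 dom probe sets only the one with the highest mean was used. It stood 1.48 above GST within replicate 3 and 0.73 above it within replicates 1 and 2. No test compared these lists with SAGA.

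**Figure D4:**
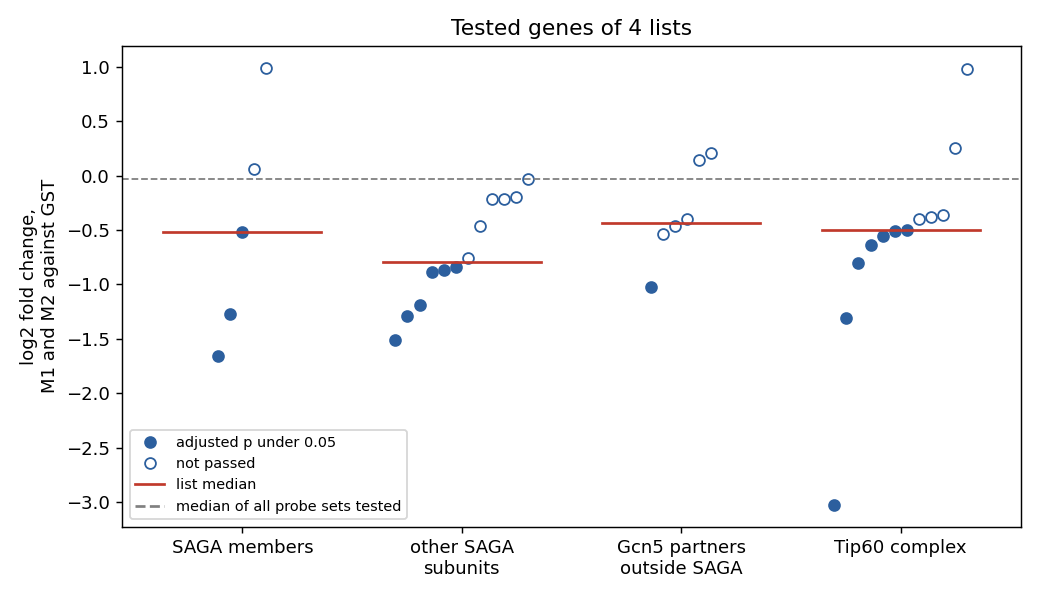
Log2 fold change of M1 and M2 against GST (y axis) for the tested genes of 4 lists (x axis), with filled points where the limma adjusted p is under 0.05, red bars at list medians and a dashed line at the median of all probe sets tested. The medians are -0.52, -0.80, -0.43 and -0.50 from left to right, all below the dashed line at -0.03.

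Neighbouring genes in the RefSeq annotation of Release 6 were looked up, because a probe set can also detect RNA of an overlapping gene. The span of Ada2b overlaps that of PolI, a translesion DNA polymerase gene. PolI had 8.52, 8.25 and 8.57 with M1, 8.35, 8.27 and 8.53 with M2, 7.03 without dsRNA, and 7.73, 7.83 and 7.20 with GST. It rose by 0.83 ± 0.17 (limma adjusted p = 0.0097), by 1.34 within replicate 3 and 0.57 within replicates 1 and 2. In replicate 3 PolI had its lowest GST value (7.20), whereas Ada2b had its highest knockdown values (9.54 with M1 and with M2). Strand and probe positions were not used here, so signal of the 2 genes cannot be told apart. wda overlaps EloA, an elongin gene (0.46 ± 0.15, limma adjusted p = 0.061), and Ada3 overlaps CG7536 (0.26 ± 0.14, 0.24). Neither passed the test. No annotated gene overlaps Spt3 or Sgf11. Of the nearest non-overlapping genes with a tested probe set, Rad60 beside wda fell by 1.38 ± 0.25 (limma adjusted p = 0.0045) and CG32202 beside Sgf11 by 1.54 ± 0.35 (0.014). DCAF12 beside Spt3 had -0.20 ± 0.15, CG9636 beside Ada2b -0.05 ± 0.23 and Swt1 beside Ada3 -0.07 ± 0.15, and they did not pass.

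The genes whose values ran most nearly parallel over the 10 arrays were found by Pearson correlation among 4043 other named genes, 1 probe set each. The arrays share their treatment groups and replicate numbers, so they are not independent points, and no p is given. Closest to Spt3 were fs(1)Yb, a gene of the piRNA pathway (r = 0.998), and the splicing factor gene Prp38 (r = 0.994). Their log2 fold changes were -2.81 ± 0.26 and -1.37 ± 0.12. Closest to wda were the centriole gene ana2 (r = 0.995, -1.55 ± 0.22) and PCID2, an mRNA export gene (r = 0.994, -1.18 ± 0.17). Sgf11 ran with LSm7, an RNA-binding Sm-like protein gene (r = 0.984, -0.68 ± 0.14), and bisc (r = 0.984, -0.63 ± 0.19). For Ada2b they were fng, a Notch-modifying glycosyltransferase gene (r = 0.992, 2.09 ± 0.76), and dpp, which encodes a BMP ligand (r = 0.992, 2.57 ± 0.77). Of these dpp passed (limma adjusted p = 0.042) and fng did not (0.081). Ada3 ran with Ogdh, an oxoglutarate dehydrogenase gene (r = 0.956), and IntS4 of the Integrator complex (r = 0.935), whose fold changes of 0.03 ± 0.16 and -0.16 ± 0.32 did not pass.

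The scaling of the arrays moved the split of calls over all probe sets. Of the 1843 calls 68.9% were lower with the deposited scaling, 57.4% of 1927 after quantile normalisation, 48.9% of 225 after centring on 18 hybridisation spike-in probe sets, and 89.2% of 1110 with that centring and without GST replicate 2. The median over all probe sets tested then stood at 0.18, or at -0.65 without GST replicate 2. That array had a median spike-in level of 13.12, above the 10.18 to 12.33 of all other arrays. After spike-in centring 0 of the 5 SAGA genes passed in limma, with Spt3 at -1.45 ± 0.77 and wda at -1.06 ± 0.77, or -2.25 ± 0.57 and -2.003 ± 0.57 without GST replicate 2, when both passed. Spt3, wda and Sgf11 stayed below 0 and Ada2b above 0 with every scaling tried, while Ada3 was at -0.72 with spike-in centring without GST replicate 2.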

How the data were processed

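RNA of SL2 cells on 10 arrays was analysed. The deposited table holds 1 log2 value per probe set and array, made by the authors with GCRMA per the submitters' processing notes. The GCRMA version is not given in the sources used here. One array, the third of M2, has M3 in its title but M2 in its source name, and was grouped as M2.

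Of 18952 probe sets 183 controls were left out. Gene names came from the platform annotation, with 13646 probe sets naming 1 gene, 402 several and 4721 unnamed here, and 13543 were matched to RefSeq by Entrez identifier. Probe sets naming several genes were not used for single genes.

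Tests used lmFit and eBayes of limma 3.58.1 in R 4.3.3 on 4 group means of all 10 arrays, two-sided, with Benjamini-Hochberg adjustment over 7298 probe sets of mean level at least 4. The fit was tested on simulated data with independent noise in each array. These lacked the shared deviations of replicates described below, so the simulation does not cover them. The number of arrays limits the precision, and the lone array of untreated cells is taken to have the spread of the other groups.

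Arrays with the same replicate number deviated together from their group means (r of 0.34 to 0.93 over 9 pairs), and a block fit took numbers as pairs. Within replicates 1 and 2, knockdown and GST arrays of the same number had r of 0.34 to 0.49. Those of other numbers had 0.55 to 0.67, so within these replicates the values do not show a pairing by number. Pairs of other numbers had r of 0.55 to 0.75 within replicates 1 and 2 and -0.89 to -0.54 across to replicate 3. Deviations from a group mean cancel out within the group, so negative r across to replicate 3 is partly forced. A block for this division was also fitted. The division was read from the same deviations that this block removes, and no label gives it.

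Other named genes were all listed SAGA subunits, members of the other lists that passed, annotated neighbours and the 2 most correlated genes per member. A gene said to pass only with a block was added to these. Members, lists, tests and alternatives were chosen with earlier results of these data known. Sequences were not used here. Figures used Python 3.11.15 and matplotlib 3.10.9.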

Additional observations from a re-analysis of the deposited data

Results flagged for a closer look

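The knockdown effect on Ada2b differed between replicate 3 and replicates 1 and 2 by 0.88 log2 units in a test of that difference (limma adjusted p = 0.0461). Ada2b was higher than in every GST array in all 6 knockdown arrays, counted over both parts together. Replicate 3 holds 1 GST array, assumed in this fit to vary like the other arrays. The same contrast passed at 723 of 7298 probe sets.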

How the results depend on the processing

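The count of SAGA genes called for M1 and M2 against GST was 3 of 5. It stayed between 2 and 4 under all alternatives except spike-in centring, which gave 0 in limma, and its range when 1 array was left out was 2 to 3. For M1 alone and for M2 alone the count of 2 became 4 with array weights and in replicates 1 and 2 alone. It also became 4 with the replicate block and with the block for replicate 3 against replicates 1 and 2, a division that no label gives. Calls over all probe sets rose in these fits too. For M1 the share went from 20.4% to 37.4% with the replicate block and 42.2% with the block for replicate 3. For M2 it went from 18.8% to 36.3% and 41.3%. Array weights gave 2675 calls among 7298 probe sets for M1 and M2 together, against 1843. The count of SAGA genes became 1 for each construct with a filter at a mean of 6, which leaves out Spt3. It was 0 for each after spike-in centring. With spike-in centring and without GST replicate 2 it was 1 for M2. For M1 and M2 together the filter at 6 called 1360 of 6107 probe sets. Shares of all probe sets for each construct alone were not counted in these fits, with array weights or in replicates 1 and 2 alone. Leaving out 1 array gave 2 SAGA genes for M1 throughout and 2 to 3 for M2. M2 against M1 and no dsRNA against GST gave 0 calls among the 5 genes in every fit run in limma, as before. Over all probe sets 1843 calls became 3189 with the replicate block, 3541 with the block for replicate 3 and 2838 in replicates 1 and 2 alone. They became 225 after spike-in centring and 1110 when GST replicate 2 was also left out. Leaving out 1 M1, M2 or GST array gave 1400 to 1784. Fold changes of Spt3 lay between -2.25 and -1.43 over 22 alternatives and those of wda between -2.003 and -0.95 over 23, each losing its call once, with spike-in centring. Sgf11 lost its call in 11 of 23 and Ada2b, at 0.35 to 1.20, gained one in 7 of 23. Among the 23, leaving out the array of no dsRNA or fitting only the groups compared could not change these results. No direction of a called gene turned. Each measured gene had 1 probe set, so no other probe set could be tried. Except where fewer genes were tested, the cause of these changes was not tested. Spt3 lay near the lower end of the scale after knockdown, so larger falls might not have been measurable.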
